A study of Mus musculus with 3 samples.

Results

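Arpp21, Aqp11, Ly6d, St6gal1 and Gpr83 are 5 genes of 6795 measured that were listed as markers of the CD4+CD8+ (double-positive) stage of thymocyte development, and they were chosen by their log ratios on these same 3 arrays, so those ratios are given as a description, with no test. They are represented by 7 probes, 2 each for Arpp21 and Gpr83 and 1 for each of the others. The arrays split them. Arpp21, Aqp11 and Ly6d had lower ratios in RNA of CD69hi thymocytes, as a double-positive label implies, while St6gal1 and Gpr83 had higher ratios, against that label. The 5 are therefore described below as 3 lower and 2 higher genes and not as 1 marker group.

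Each of 3 spotted 2-colour arrays compared total RNA from CD69hi thymocytes, purified from wild-type B6 mice, with total RNA from Zap70-/- thymocytes that were not separated. The sample titles call the second RNA CD69lo. The CD69hi sample was labelled with Cy3 on arrays 1 and 2 and with Cy5 on array 3. Genotype and purification both differ between the RNAs, and the sources used here give neither the age and sex of the mice nor the strain of the Zap70-/- mice. The labels do not tie the arrays to separate mice. The p-values below therefore rest on a spread between arrays that may be technical. Each array gave 1 log ratio per probe for 9596 probes, with no spot intensity. The number of arrays limits the precision, and no level of a gene in either RNA can be given.

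Double-positive thymocytes are the cortical stage at which T cell receptor alpha genes are rearranged and receptors are tested on self peptides. A receptor signal that passes this test raises the surface protein CD69 and starts the change into single-positive cells. Zap70 is the kinase that carries the signal from the receptor, and thymocytes without it halt at the double-positive stage, so the comparison sets signalled cells against a thymus held largely before that step. In bulk RNA, fewer cells of a type and less RNA per cell cannot be told apart.

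The deposited ratios were read as Cy5 over Cy3 and turned by the labelled dyes to give CD69hi over Zap70-/-, so that a positive log2 ratio means higher in CD69hi RNA. Before turning, arrays 1 and 2 correlated positively over all probes (Pearson r = 0.61), and array 3 correlated negatively with array 1 (r = -0.25) and array 2 (r = -0.40). This direction is likely, though no label states it, and its basis is 2 genes of immature thymocytes, the recombinase gene Rag1, with log2 ratios of -1.37, -1.42 and -0.77 on arrays 1, 2 and 3, and the terminal transferase gene Dntt, at -1.03, -1.77 and -0.35. With the opposite reading every sign below would turn. The sources used here do not name the log base. Folds are given for base 2 and would be larger for a natural logarithm, 10.5 in place of 5.12 for Ly6d.

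The promoter windows of the members are shown because 3 members differ between the RNAs one way and 2 the other, and because E proteins, factors of the double-positive program, bind the E-box CANNTG. Nuclear receptors of the ROR and Nr4a families recognise motifs that contain AGGTCA. The RefSeq promoter table (GRCm38.p6) held windows for 4 of the 5 members, each running from 250 bases before a start site to 50 after it. No window was matched for Ly6d. Arpp21 had 9 windows, St6gal1 had 3, and Aqp11 and Gpr83 had 1 each. The window with the start site farthest upstream is printed, 5′ to 3′ on the gene's strand, with each CANNTG and each AGGTCA on either strand in capitals.
Arpp21 (chr9:112233673-112233972, minus strand): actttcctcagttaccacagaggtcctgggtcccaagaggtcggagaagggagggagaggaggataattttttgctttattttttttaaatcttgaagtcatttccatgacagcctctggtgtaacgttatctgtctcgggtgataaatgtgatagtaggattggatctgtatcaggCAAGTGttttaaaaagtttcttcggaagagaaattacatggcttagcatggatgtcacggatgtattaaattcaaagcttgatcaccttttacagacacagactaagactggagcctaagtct
Aqp11 (chr7:97738198-97738497, minus strand): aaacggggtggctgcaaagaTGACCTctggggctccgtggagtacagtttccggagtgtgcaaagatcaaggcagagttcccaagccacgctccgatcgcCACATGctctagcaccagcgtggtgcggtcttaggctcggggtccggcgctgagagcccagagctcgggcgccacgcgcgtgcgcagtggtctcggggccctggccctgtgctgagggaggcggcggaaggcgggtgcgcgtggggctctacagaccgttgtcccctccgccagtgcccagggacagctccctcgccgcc
St6gal1 (chr16:23224490-23224789, plus strand): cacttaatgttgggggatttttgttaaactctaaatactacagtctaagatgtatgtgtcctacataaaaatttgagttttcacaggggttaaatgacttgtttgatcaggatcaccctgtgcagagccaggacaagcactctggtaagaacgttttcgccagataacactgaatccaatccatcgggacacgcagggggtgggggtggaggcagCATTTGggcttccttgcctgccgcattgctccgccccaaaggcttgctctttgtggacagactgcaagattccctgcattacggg
Gpr83 (chr9:14859960-14860259, plus strand): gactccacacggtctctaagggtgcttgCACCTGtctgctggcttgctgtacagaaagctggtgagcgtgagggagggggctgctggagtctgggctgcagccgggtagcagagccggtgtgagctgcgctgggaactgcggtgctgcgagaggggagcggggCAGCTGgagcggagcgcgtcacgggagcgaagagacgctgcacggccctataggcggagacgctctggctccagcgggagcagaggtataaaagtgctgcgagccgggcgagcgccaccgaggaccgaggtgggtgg

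Every printed window held CANNTG, as did 72.3% of all 32851 windows in the table. The match began 73 bases before the start site in Arpp21, 150 in Aqp11 and 35 in St6gal1. Gpr83 had 2 matches, CACCTG at 222 bases and CAGCTG at 87 bases before its start. These are the forms CAGGTG (read on the opposite strand) and CAGCTG, both contained in CANNTG, which occurred in 20.2% and 16.3% of all windows. Of the 9 Arpp21 windows, some of which overlap, 6 held CAGGTG and 3 held CAGCTG. None of the Aqp11 and St6gal1 windows held either form. AGGTCA, found in 16.3% of all windows, occurred in the Aqp11 window, 230 bases before the start on the opposite strand, in 1 of 9 Arpp21 windows and in 1 of 3 St6gal1 windows. CAGGTG and CAGCTG were thus present in 1 lower gene (Arpp21, in windows other than the printed one) and 1 higher gene (Gpr83). The genes had unequal numbers of windows, so these counts do not compare lower with higher genes. A match describes the letters only.

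Arpp21 encodes a cAMP-regulated phosphoprotein with an R3H domain that binds RNA, first known from brain. Its thymocyte form is a mark of immature thymocytes. Averaged over its probes, Arpp21 had log2 ratios of -1.75, -2.21 and -1.51 on arrays 1, 2 and 3. All 3 arrays lay on the same side of 0 and within 0.695 of each other. The mean was -1.82 ± 0.35 (SD, n = 3), which is 3.53-fold higher in Zap70-/- RNA. It was the 45th lowest mean of the 6795 genes. The first probe read -1.80, -1.85 and -1.28 and the second -1.70, -2.56 and -1.74. Their means, -1.64 and -1.999, differed by 0.36 on the log2 scale, beside SDs over arrays of 0.31 and 0.49. The second probe was higher on array 1, by 0.1, and lower on arrays 2 and 3, by 0.72 and 0.45. Among 631 genes with more than 1 probe, 206 had a wider span between probe means, and the median span was 0.22.

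The Arpp21 gene also contains the microRNA locus Mir128-2 on the same strand, and its relative R3hdm1 contains Mir128-1. Both loci give the same mature 3p sequence. It is shown because it is the other product of the Arpp21 locus (chr9:112118644-112118664, GRCm38.p6, minus strand, from RefSeq), with its seed, bases 2 to 8, in capitals.
mmu-miR-128-3p: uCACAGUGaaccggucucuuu
The microRNA itself and R3hdm1 were not analysed here. Of 2 measured genes listed with Arpp21, 0 passed and 0 reached a raw p of 0.05 (limma). Of all features, 4.13% passed as higher and 2.81% as lower. Calm3, a calmodulin gene, averaged a log2 ratio of -0.48 ± 0.39 (SD, n = 3). Its q was 0.23 (limma, where q is the p-value after Benjamini-Hochberg adjustment over all 8905 features, with 0.05 as the threshold). By a raw p of 0.05 in the same limma fit, 1069 of the 8905 features were higher and 1014 lower. Counts by a raw p from the full fit are to be read beside these.

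Aqp11 encodes an aquaporin of intracellular membranes. Its single probe gave log2 ratios of -2.34, -2.43 and -1.56 on arrays 1, 2 and 3. Arrays 1 and 2 nearly coincided and array 3, in the other dye orientation, was closer to 0. The mean of -2.11 ± 0.48 (SD, n = 3) is 4.31-fold higher in Zap70-/- RNA and ranked 26th lowest. Of 4 other aquaporin genes measured, 0 passed the limma test (beside 4.13% of all features that rose and 2.81% that fell), and 0 reached a raw p of 0.05. Their mean log2 ratios ran from -0.33 (Aqp5 ± 0.34, SD, n = 3, q = 0.33) to 0.15.

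Ly6d encodes a small GPI-anchored surface protein, the ThB antigen, found on B cells and on a part of the thymocytes, and in mouse bone marrow it marks lymphoid progenitors on the way to B cells. It had the lowest mean ratio of the 5 genes and the widest spread, although on array 3 Arpp21 and Aqp11 were lower. Its log2 ratios were -2.98, -2.75 and -1.34 on arrays 1, 2 and 3. The mean was -2.36 ± 0.88 (SD, n = 3), or 5.12-fold higher in Zap70-/- RNA, and ranked 15th lowest. Array 3 differed from the mean of arrays 1 and 2 by 1.52 on the log2 scale, against 0.83 for Aqp11 and 0.47 for Arpp21. Spotted cDNA probes can bind transcripts of related genes, so values within the Ly6 family are uncertain.

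Of 9 relatives of Ly6d measured, 1 rose, 1 fell and 7 did not pass (limma, adjusted p at most 0.05), beside 4.13% of all 8905 features that rose and 2.81% that fell. Ly6c1, a surface protein of memory and activated T cells and of monocytes, rose, with a log2 ratio of 1.76 ± 0.15 (SD, n = 3, limma q = 0.010), higher on 3 of 3 arrays. Ly6e, a thymic shared antigen of immature thymocytes, fell, at -1.13 ± 0.44 (q = 0.047), a call that ended when array 1 (q = 0.17) or array 2 (q = 0.24) was left out and when the arrays were scaled alike (q = 0.063). The list median was 0.06, against 0.01 over all features. Of 11 measured genes of the B lineage, in which Ly6d is also used, 1 rose and 0 fell (limma). By a raw p of 0.05, 4 were higher and 0 lower, beside 1069 and 1014 of all 8905 features. The mean log2 ratios of the 11 ran from -0.35 to 1.40. The one that rose, Cd72, had 0.95 ± 0.15 (SD, n = 3, q = 0.031), a call that ended when array 1 (q = 0.11) or array 2 (q = 0.24) was left out. The part of B cells in the Ly6d and St6gal1 ratios was not tested.

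**Figure D1:**
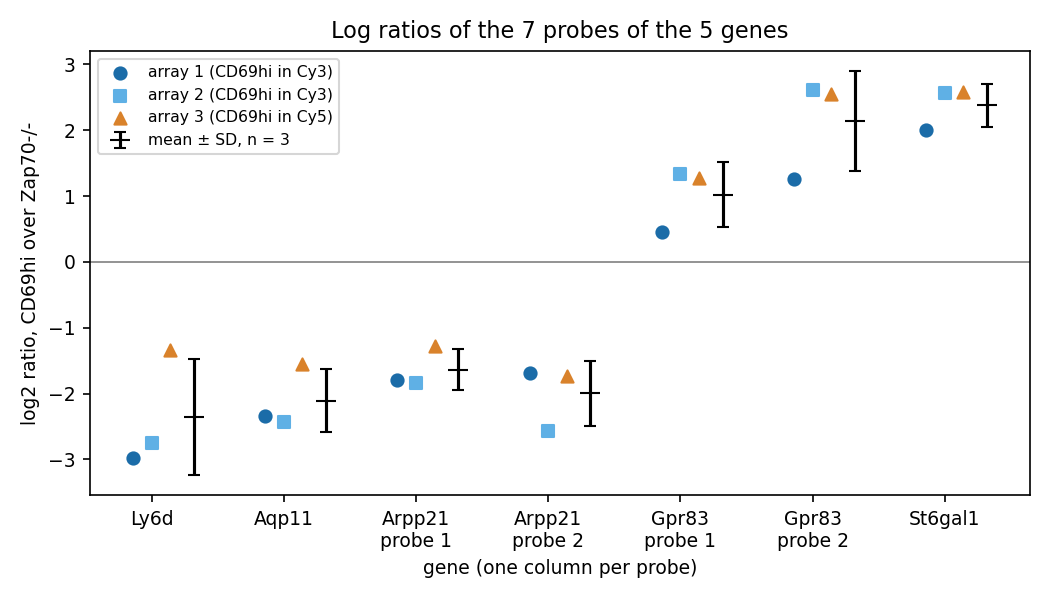
Log2 ratios (y axis, CD69hi over Zap70-/-) of the 7 probes (x axis, one column each) on the 3 arrays, with array 1 and 2 in blue and array 3, of opposite dye orientation, in orange. Black bars give the mean ± SD over 3 arrays. All points of Ly6d, Aqp11 and Arpp21 lie below 0 and all points of Gpr83 and St6gal1 above it, and Gpr83 probe 2 lies above probe 1 on every array.

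St6gal1 encodes the sialyltransferase that caps the galactose of N-glycans with sialic acid, a sugar change on thymocyte surface proteins. It had the highest ratio of the 5 genes. Its single probe gave log2 ratios of 2.00, 2.57 and 2.57 on arrays 1, 2 and 3. Array 2 and array 3 gave the same value within 0.01 although the dyes were exchanged, and array 1 was lower. The mean of 2.38 ± 0.33 (SD, n = 3) is 5.21-fold higher in CD69hi RNA and was the 38th highest of the 6795 genes.

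Of 10 other genes of sialic acid synthesis, transfer and removal, 2 rose, 0 fell and 8 did not pass (limma; 5 higher and 1 lower by a raw p of 0.05), beside 4.13% of all features that rose. St3gal2 had log2 ratios of 1.81, 2.42 and 2.50 and a mean of 2.24 ± 0.38 (SD, n = 3, limma q = 0.011). St3gal1, which caps the core O-glycans of T cells, had 1.05, 1.93 and 2.05, with a mean of 1.68 ± 0.54 (q = 0.031). The St3gal1 call ended when array 2 (q = 0.10) or array 3 (q = 0.067) was left out. The list median was 0.23, and its lowest member, the sialidase gene Neu1, had -0.45 ± 0.12 (q = 0.13).

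Gpr83 encodes a G protein-coupled receptor that was first cloned as a glucocorticoid-induced receptor of a mouse T cell line and is known from brain and from regulatory T cells. Averaged over its probes it had log2 ratios of 0.86, 1.98 and 1.91 on arrays 1, 2 and 3. Array 1 stood apart from the other two. The mean of 1.58 ± 0.62 (SD, n = 3) is 2.99-fold higher in CD69hi RNA, and ranked 113th highest. The probes differed in size but not in sign. The first read 0.46, 1.34 and 1.27, with a mean of 1.02 ± 0.49, and the second read 1.27, 2.62 and 2.54, with a mean of 2.14 ± 0.76. The second was higher on every array, by 0.81, 1.28 and 1.27. The fold is thus 2.03 by one probe and 4.41 by the other, and the difference of 1.12 between their means was exceeded in 28 of the 631 genes with several probes.

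Of 8 measured regulatory T cell genes, 3 rose (beside 4.13% of all features), 0 fell (beside 2.81%) and 5 did not pass (limma; 5 higher and 1 lower by a raw p of 0.05), with mean log2 ratios from -1.62 to 1.82 and a median of 0.54. The interleukin receptor chain Il2rb had 1.82 ± 0.76 (SD, n = 3, limma q = 0.041), the integrin chain Itgae 1.29 ± 0.32 (q = 0.028) and the ectonucleotidase Nt5e 0.70 ± 0.10 (q = 0.048). All 3 calls ended when array 2 (q of 0.13, 0.13 and 0.39) or array 3 (q of 0.089, 0.055 and 0.058) was left out. The Nt5e call also ended when array 1 was left out (q = 0.19) or the arrays were scaled alike (q = 0.055), and the Il2rb call when a dye term was added (q = 0.051). Nrp1, a coreceptor on regulatory T cells, lay below 0 on 3 of 3 arrays, with -1.62 ± 0.81 (q = 0.060), and with array 1 left out it passed as 1 gene that fell (q = 0.032). The receptor chain Il2ra had -0.54 ± 0.89 (q = 0.43). The defining markers Foxp3 and Ctla4 were not analysed here. Both this list and the next, of macrophage and dendritic cell genes, were written with earlier results of these data known. Their counts of calls are thus a description and not a test. Macrophage and dendritic cell genes also rose in CD69hi RNA, 8 of 12 with 0 falling, beside 4.13% and 2.81% of all features (limma; 11 higher and 0 lower by a raw p of 0.05). Their mean log2 ratios ran from 0.04 to 2.83, led by the protease Ctss (2.83 ± 0.41, SD, n = 3, q = 0.0089), the lysozyme Lyz2 (2.51 ± 0.08, q = 0.0051) and the lipid carrier Apoe (2.46 ± 0.14, q = 0.0057). These ratios are of the same size as that of St6gal1, a gene that such cells can also express. The part of either cell type in the St6gal1 and Gpr83 ratios was not tested.

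On all 5 genes, array 3, of the other dye orientation, read above the mean of arrays 1 and 2, by 0.29 (St6gal1) to 1.52 (Ly6d) on the log2 scale. All 3 lower genes were closest to 0 on array 3, and both higher genes were closest to 0 on array 1, which shares its dye orientation with array 2. Most genes with large ratios had the same order. Of 215 genes with a mean log2 ratio below -1, 72.6% were closest to 0 on array 3, and of 252 genes with a mean above 1, 67.1% were closest to 0 on array 1. The median log2 ratio of those 215 genes was -1.52, -1.63 and -0.99 on arrays 1, 2 and 3. Being closest to 0 on array 3, as Ly6d and Aqp11 were, was thus common among genes with a mean below -1. That holds for the array order only. The difference of 1.52 for Ly6d was larger than the gap between these medians.

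**Figure D2:**
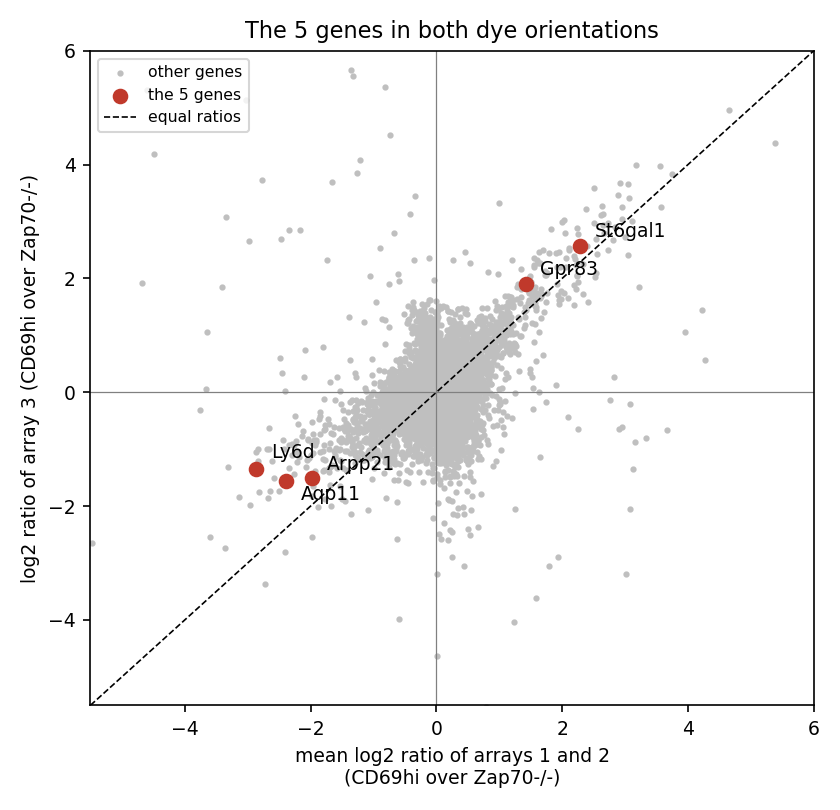
Log2 ratio of array 3 (y axis) against the mean log2 ratio of arrays 1 and 2 (x axis), both as CD69hi over Zap70-/-, for the 5 genes (red) and all other genes (grey), with the dashed line at equal ratios and 7 genes outside the axes. Ly6d, Aqp11 and Arpp21 lie above the line, nearer to 0 on array 3, and St6gal1 and Gpr83 lie above it at positive ratios.

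Likeness of pattern was measured as the Euclidean distance between the 3 log2 ratios of each pair of genes, over 3 arrays only. Arpp21 lay 0.64 from Aqp11 and 1.355 from Ly6d, Aqp11 lay 0.74 from Ly6d, and St6gal1 lay 1.45 from Gpr83. Pairs of a lower and a higher gene were at least 5.998 apart, which follows from their large ratios of opposite sign. The genes nearest to Arpp21 were the DNA topoisomerase Top2a (distance 0.29), Agtrap (0.39) and the Wnt ligand Wnt5b (0.40). Nearest to Aqp11 were the synaptotagmin Syt13 (0.24), the extracellular matrix gene Hmcn1 (0.25) and the phosphomannomutase Pmm1 (0.40). Nearest to Ly6d were the granzyme Gzma (0.29), the cell cycle gene Cdca3 (0.35) and the cyclin Ccnf (0.40). St6gal1 was nearest to its relative St3gal2 (0.26), followed by the integrin chain Itgb7 and the egress factor Klf2 (0.28 each). Gpr83 was nearest to the cytokine gene Flt3l (0.17), the interferon-induced Oas1a (0.19) and St3gal1 (0.24). With 3 arrays, such nearness says little beyond a like mean and a like array order.

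The other genes listed for the double-positive stage gave the setting of the 5. Of 29 measured, 7 fell (24.1%, beside 2.81% of all features), 2 rose (6.9%, beside 4.13%) and 20 did not pass, with a median log2 ratio of -0.49. This list was written with earlier results of these data known and includes Rag1 and Dntt, which set the direction. The furthest below 0 were the endoribonuclease gene Endou (-1.73 ± 0.64, SD, n = 3, limma q = 0.036), the NFAT family member Nfatc3 (-1.53 ± 0.23, q = 0.015) and the Ets factor Ets2 (-1.50 ± 0.50, q = 0.033). Rag1 followed at -1.19 ± 0.36 (q = 0.035). The cell cycle kinase Cdk6 (-0.998 ± 0.07) and the progenitor factor Myb (-0.99 ± 0.07) fell as well, each with a q of 0.024. These 6 genes were lower on 3 of 3 arrays. All 6 calls ended when array 1 (q from 0.056 to 0.13) or array 2 (q from 0.067 to 0.19) was left out, and the Endou call when the arrays were scaled alike (q = 0.052). Over the list, 1 gene fell with array 1 left out (Nr1d2, named after its values were seen). With array 2 left out 0 fell (limma, 8 lower by a raw p of 0.05, beside 482 of all features). In either case 1 rose. Of all features, 32 fell with array 1 left out and 24 with array 2 left out, against 250 in the full fit. The loss of calls was thus not particular to the stage genes. With array 3 left out, 10 stage genes and 409 of all features fell.

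Like St6gal1 and Gpr83, 2 of the 29 rose against the stage label. Tox, a nuclear factor induced during selection, had log2 ratios of 2.63, 2.82 and 2.51 and a mean of 2.65 ± 0.16 (SD, n = 3, q = 0.0051), and Lef1, a Wnt pathway factor that acts with Tcf7, had 0.96, 1.25 and 1.27 and a mean of 1.16 ± 0.17 (q = 0.023). The Lef1 call ended when array 1 (q = 0.070) or array 2 (q = 0.14) was left out. The coreceptor genes that name the stage had lower means but did not pass, Cd4 at -0.29 ± 0.07 (q = 0.25) and Cd8a at -1.13 ± 0.62 (q = 0.081). Leaving out array 3 (q = 0.043) or adding a dye term (q = 0.048) took Cd8a past the threshold. Dntt did not pass (-1.05 ± 0.71, q = 0.12). The means of Arpp21, Aqp11 and Ly6d lay below those of all 29, and those of St6gal1 and Gpr83 lay above 28 of them, below Tox. Because these members were chosen by the same ratios, places near the ends of the list follow in part from that choice.

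**Figure D3:**
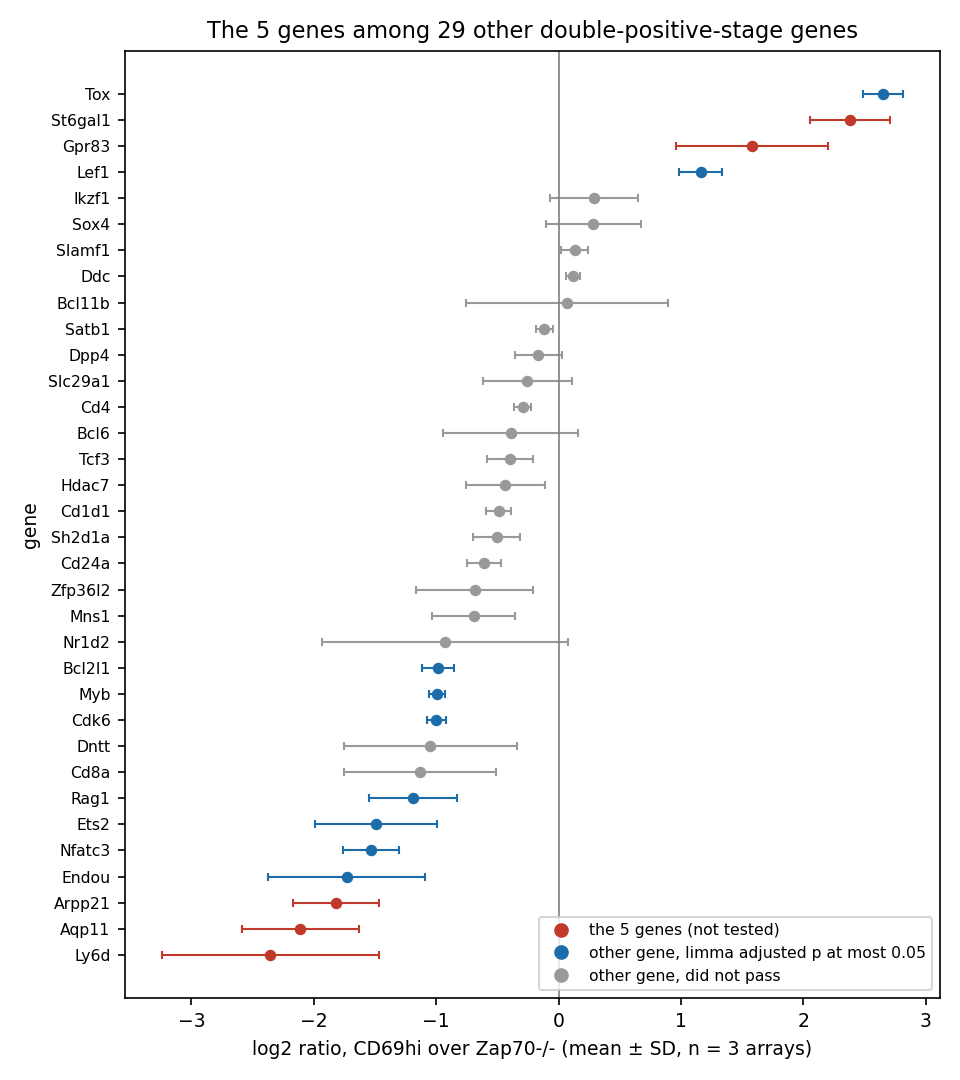
Mean log2 ratio ± SD over 3 arrays (x axis, CD69hi over Zap70-/-) of the 5 genes (red, not tested) and 29 other genes listed for the double-positive stage (y axis), blue where limma's adjusted p was at most 0.05 and grey where it was not. Ly6d, Aqp11 and Arpp21 are at the lower end and St6gal1 and Gpr83 near the upper end, next to Tox and Lef1. The red genes were chosen by these ratios.

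Genes that thymocytes switch on after selection were listed for the other side of the comparison. The list was written with earlier results of these data known, so its count of calls is a description and not a test. Of 18 measured, 15 rose and 0 fell, beside 4.13% and 2.81% of all features (limma; 18 higher and 0 lower by a raw p of 0.05), and the list median was 2.51, a log2 ratio close to that of St6gal1 and above that of Gpr83. It was led by the inhibitory receptor Cd5 (4.75 ± 0.43, SD, n = 3), Ms4a4b (3.47 ± 0.29), with a q of 0.0051 each, and the chemokine receptor Ccr7 (3.25 ± 0.44, q = 0.0070). Of 9 T lineage genes, Cd4 and Cd8a among them, 0 passed, beside 4.13% of all features that rose and 2.81% that fell (limma). By a raw p of 0.05, 1 was higher and 1 lower, and the median log2 ratio was -0.01. With array 3 left out or a dye term added, 1 of the 9 fell. Ratios without spot intensities cannot show whether either RNA held T lineage transcripts.

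**Figure D4:**
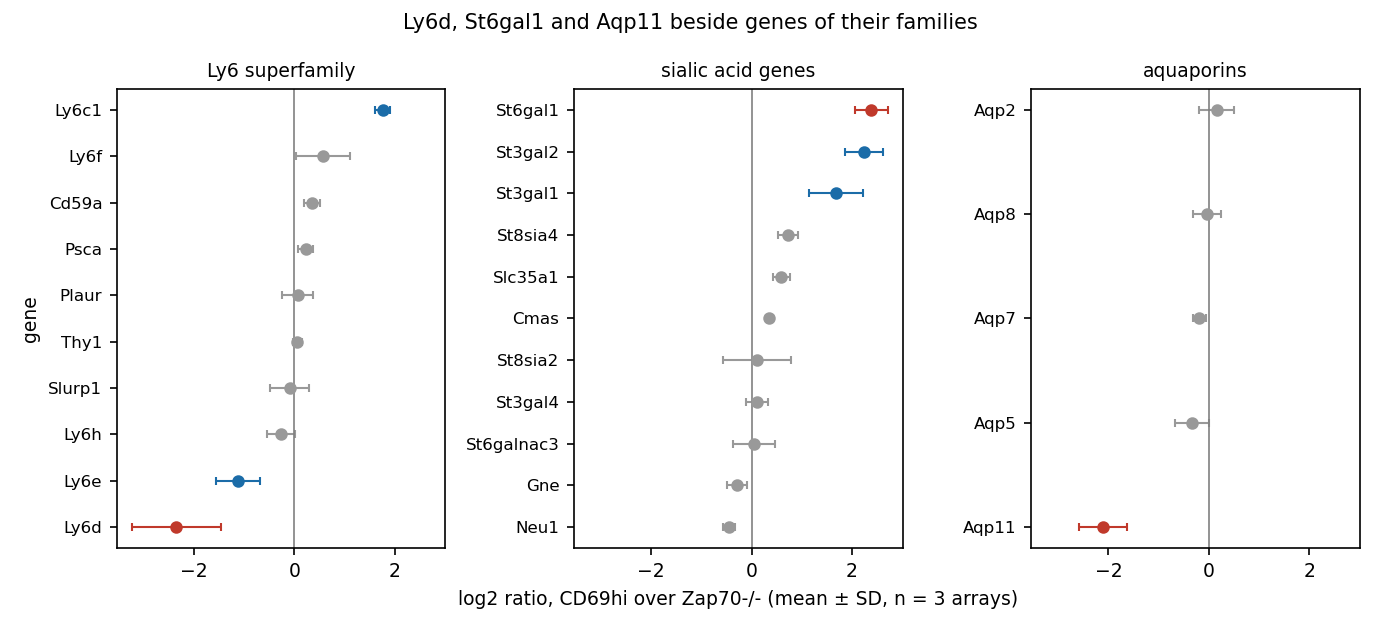
Mean log2 ratio ± SD over 3 arrays (x axis, CD69hi over Zap70-/-) of Ly6d, St6gal1 and Aqp11 (red, not tested) beside measured genes of the Ly6 superfamily, of sialic acid metabolism and of the aquaporins (y axes), blue where limma's adjusted p was at most 0.05 and grey where it was not. Ly6d and Aqp11 are the lowest in their panels, and St6gal1 is the highest in its panel, above St3gal2 and St3gal1. The red genes were chosen by these ratios.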

How the data were processed

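The authors deposited a table of log ratios, 1 for each probe on each array, taken here as log2, with array medians of -0.004, -0.005 and -0.002. How background, spot filters and normalization were handled, and the log base, is not said in the labels. Values of arrays 1 and 2 were multiplied by -1. Of 9596 probes, 7486 had 1 gene symbol, 483 several and 1627 none in the platform annotation; RefSeq identifiers changed 0 symbols. Probes with 1 symbol were averaged per symbol, giving 8905 features, 6795 of them genes. All features were fitted with limma 3.58.1 (lmFit, eBayes, 1 coefficient) in R 4.3.3, two-sided, Benjamini-Hochberg adjusted over 8905 features, threshold 0.05, and the fit was tested on simulated data. The arrays leave 2 residual degrees of freedom.

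The members and the 13 gene lists were chosen with earlier results of these data known, so members have no p-value and no list was tested as a set. Named genes are, in each list, called genes with the largest ratios or else the one with the largest moderated t (among stage genes also Cd4, Cd8a, Rag1 and Dntt), and 3 nearest genes per member. Neu1, Nr1d2, Nrp1, Il2ra, Foxp3 and Ctla4 are named outside this rule. Alternatives left out each array, added a dye term, scaled arrays to 1 median absolute deviation, left array 3 unturned, used robust shrinkage, and took probes singly. No filter on dim spots could be run, because no intensities were used.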

Additional observations from a re-analysis of the deposited data

How the results depend on the processing

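The 5 genes kept their sign in all 36 recomputed values, and 31 stayed within 1 SD of the mean reported. Both counts were partly fixed in advance. Each gene had the same sign on every array, so leaving out 1 array could not change it. The mean of the arrays left must also lie within 1 SD, and the median of 2 probes equals their mean. Leaving out 1 array gave mean log2 ratios from -1.98 to -1.63 for Arpp21, -2.39 to -1.95 for Aqp11, -2.86 to -2.04 for Ly6d, 2.29 to 2.57 for St6gal1 and 1.38 to 1.94 for Gpr83. With array 3 not turned, means were -0.81 for Arpp21, -1.07 for Aqp11, -1.46 for Ly6d, 0.67 for St6gal1 and 0.31 for Gpr83, nearer to 0 because array 3 then opposes the others. In that setting 0 of the 29 other stage genes passed either way (limma; 0 by a raw p of 0.05), 0 of all features rose and 0 fell (209 higher and 133 lower by a raw p of 0.05), and Aqp5 turned to 0.14. The stage genes that fell were 1 without array 1, 0 without array 2 and 10 without array 3, with 7 in the full fit. In the same order, 1, 1 and 2 stage genes rose, with 2 in the full fit. Of all features, 32, 24 and 409 fell, against 250, and 169, 95 and 283 rose, against 368. With a dye term 514 features fell and 562 rose. Of 26 called genes named from the lists, 13 lost the call without array 1, 17 without array 2 and 7 without array 3. The call was lost by 3 with a dye term, 5 with scaled arrays, 26 with array 3 not turned and 0 with robust shrinkage. Genes named only as nearest to a member are not among the 26. Fits on fewer arrays have fewer residual degrees of freedom, equally so whichever array is left out. Without array 3 only 1 dye orientation is left, so dye bias and ratio cannot be told apart there. No paired analysis was possible because the arrays form 1 group of ratios.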

Other observations

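Of 12 measured genes of double-negative thymocytes and early progenitors, 2 rose and 1 fell, beside 4.13% and 2.81% of all features, and the 12 had a median log2 ratio of 0.02 (CD69hi over Zap70-/-). Notch3, a receptor of early thymocytes, fell (-1.67 ± 0.71, SD, n = 3, limma q, the Benjamini-Hochberg adjusted p, of 0.044), and the progenitor factor Lmo2 (1.18 ± 0.08, q = 0.018) and the myeloid factor Spi1 (1.05 ± 0.34, q = 0.041) rose. The Notch3 call ended when array 2 (q = 0.12) or array 3 (q = 0.097) was left out, when a dye term was added (q = 0.074) and when the arrays were scaled (q = 0.059). The Lmo2 call ended when array 1 (q = 0.072) or array 2 (q = 0.13) was left out. The Spi1 call ended when array 1, 2 or 3 was left out (q of 0.13, 0.25 and 0.056), when a dye term was added (q = 0.051) and when the arrays were scaled (q = 0.058).

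Of 8 genes of thymic epithelium, 1 fell and 0 rose, beside 2.81% and 4.13% of all features (limma; 0 higher and 2 lower by a raw p of 0.05). It was the tight junction gene Cldn4 (-0.94 ± 0.25, SD, n = 3, q = 0.039), whose call ended when array 1, 2 or 3 was left out (q of 0.17, 0.21 and 0.052). Of 5 erythroid genes 0 passed (limma; 1 higher and 0 lower by a raw p of 0.05), and the heme enzyme gene Alas2 had 0.53 ± 0.21 (q = 0.11).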
